A study of Drosophila melanogaster with 6 samples.

Results

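The CYP3 clan is the largest division of the cytochrome P450 genes in *Drosophila melanogaster*, and its transcripts were followed here in heads of flies fed the herbicide paraquat (PQ). The members are the genes of the deposited table whose symbols belong to the families Cyp6, Cyp9, Cyp28, Cyp308, Cyp309, Cyp310 and Cyp317. The rule used the symbol alone, and it found 40 of the 14604 genes in the table. All 6 libraries came from heads of wild-type Canton S males aged 3 to 5 days, 30 males per group, with RNA extracted from whole heads. The 3 control libraries came from flies that drank 2.5% sucrose, and the 3 PQ libraries from flies whose sucrose held 5 mM PQ, both over 12 h. Every fly therefore received the sucrose diet, and the groups differ in PQ alone as far as the labels state.

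Cytochrome P450 enzymes of the CYP3 clan are heme proteins of the endoplasmic reticulum that insert an oxygen atom into lipophilic substrates. They draw electrons from NADPH through the cytochrome P450 reductase Cpr, with cytochrome b5 as an additional donor. The clan holds most of the fly P450 genes that have been tied to insecticide metabolism and to induction by foreign compounds, and many of its genes lie side by side as tandem duplicates. PQ is a redox-cycling compound: NADPH-dependent reductases, Cpr among them, reduce it, and it passes the electron on to oxygen.

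Expression was given by the authors as RPKM, reads scaled to gene length and sequencing depth, so that levels can be compared between genes. The lowest value in the table is exactly 1, which 34.8% to 35.5% of genes take in a given library, and it is read here as a floor under which a level is not resolved. Of the 40 members, 8 never left the floor and could not be tested, 3 were at the floor in some libraries, and 29 were above it throughout. The 8 are *Cyp310a1*, *Cyp6a18*, *Cyp6a19*, *Cyp6a14*, *Cyp6a15Psi*, *Cyp6a16Psi*, *Cyp6t2Psi* and *Cyp9f3Psi*. The table types the last 5 of these as pseudogenes, whereas the release 6 annotation lists 3 of those, *Cyp6a14*, *Cyp6a16* and *Cyp9f3*, as protein-coding. The remaining 32 members were tested together with all other genes above the floor in at least 1 library, 9853 in all. The test was limma on log2(RPKM + 0.5), with Benjamini-Hochberg adjustment over all 9853 genes. Fold changes are on this scale, on which differences between values near the floor come out too small. Coordinates are those of the table, on the dm3 genome.

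In the sucrose-fed heads the tested members spanned a wide range of RPKM, and a few genes carried most of the clan's signal. *Cyp6d5* was the most abundant at 228 ± 22.3 RPKM (SD, n = 3), followed by *Cyp6g1*, *Cyp9f2*, *Cyp28d1* and *Cyp6w1*. These 5 were the members at 100 RPKM or more, and together they made up 63.2% of the summed RPKM of the clan. The 10 most abundant made up 84.5%. At the other end, 14 tested members had a mean under 10 RPKM, and *Cyp6t3*, *Cyp6a2*, *Cyp308a1* and *Cyp6g2* averaged less than 2 RPKM, at or just above the floor.

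**Figure D1:**
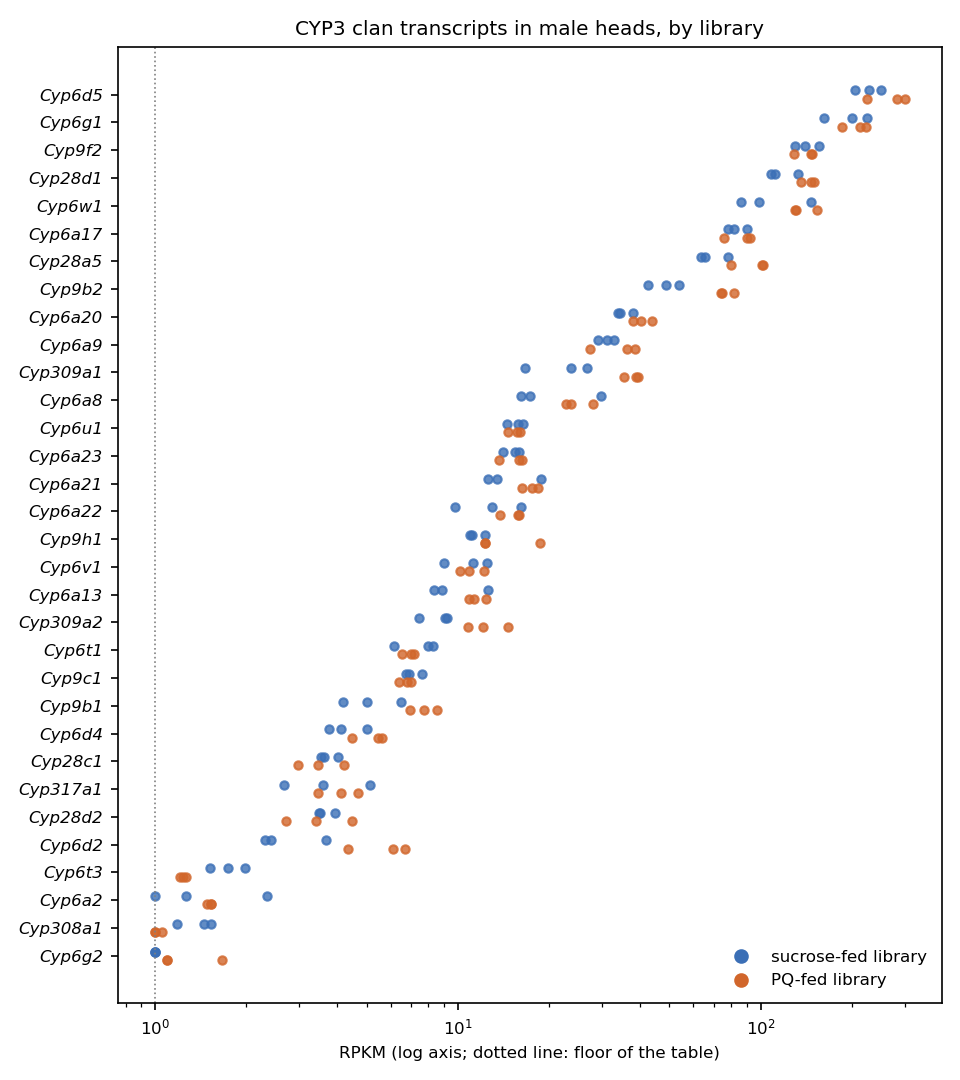
RPKM of the 32 tested CYP3 clan members in each library, on a log axis, with 3 blue points per gene for sucrose-fed and 3 orange points for PQ-fed heads, ordered by the level in sucrose-fed heads. Cyp6d5 stands at the top, from 205 to 299 RPKM over all libraries, and the orange points of Cyp9b2 (74.1 to 81.9 RPKM) lie clear of its blue points (42.3 to 54.0 RPKM).

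Between the feeding groups, 0 of the 32 tested members passed limma's test at an adjusted p under 0.05. Among all tested genes, 0.0812% passed with higher values in PQ-fed heads and 0% with lower ones. The adjusted p was 0.186 for *Cyp9b2*, 0.633 for *Cyp309a1* and 0.708 for *Cyp6d2* (limma), and at least 0.951 for all other members, so it is not repeated for each gene. Fold changes are followed by their standard error (SE) from limma. At an unadjusted p under 0.05 from limma, 8 members were higher in PQ-fed heads, where 2.21% of all tested genes were, and 2 were lower, where 1.67% of all tested genes were. The 3 PQ-fed values all exceeded the 3 sucrose-fed values for 9 members, against 3.11% of all tested genes, and lay below for 2 members, against 4.47%. Such separation gives p = 0.10 in an exact two-sided permutation test, the smallest p that 3 against 3 libraries allow. The median log2 fold change of the 32 members was 0.21, with 24 positive values, beside a median of -0.02 and 42.2% positive values over all tested genes. The members were taken with earlier results of these libraries known, so the counts describe the clan and carry no test.

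**Figure D2:**
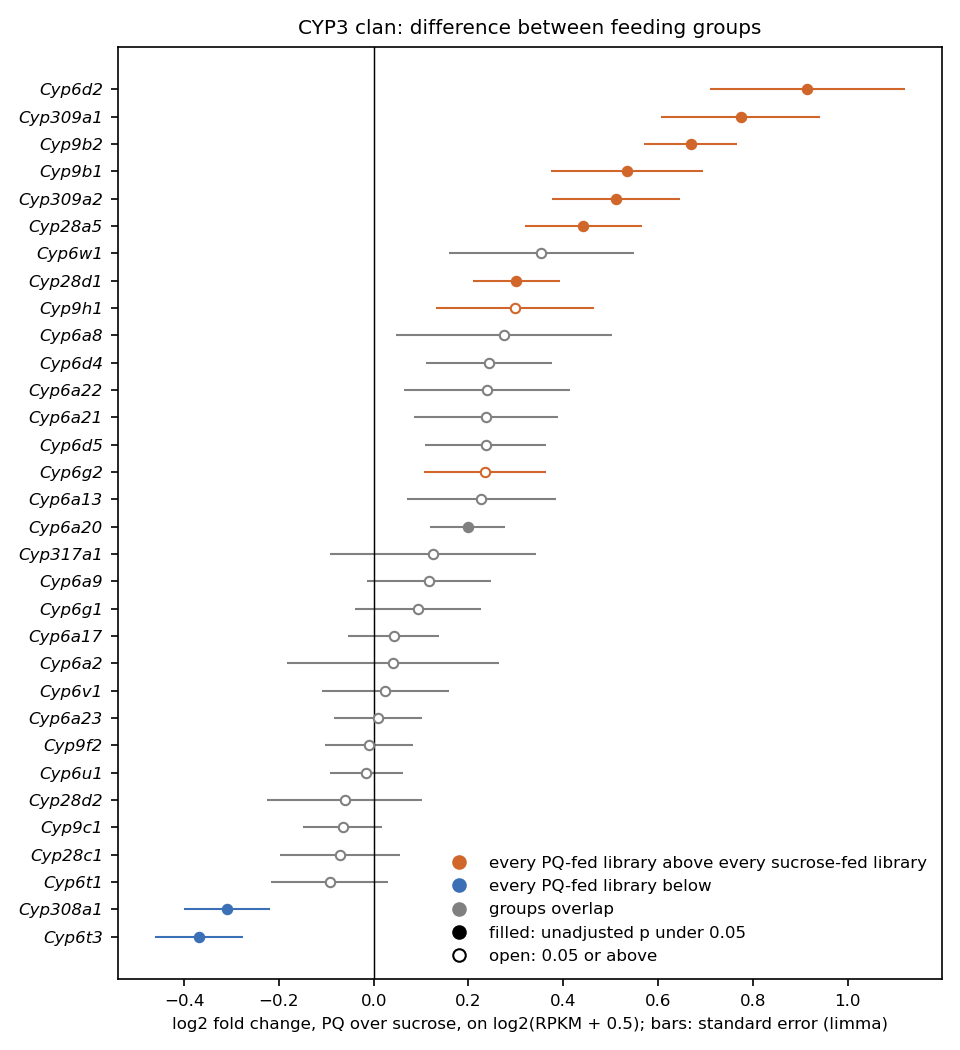
Log2 fold change of each tested member, PQ-fed over sucrose-fed heads, with limma standard errors as bars. Colour marks whether the groups overlap, and filled points have an unadjusted p under 0.05. Cyp6d2 (0.92), Cyp309a1 (0.77) and Cyp9b2 (0.67) lead, and Cyp6t3 (-0.37) and Cyp308a1 (-0.31) are the 2 lowest.

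The smallest p of the clan belonged to *Cyp9b2*, on chromosome 2R from 3017782 to 3019640. Its level was 54.0, 48.7 and 42.3 RPKM with sucrose and 81.9, 74.6 and 74.1 RPKM with PQ. The lowest PQ-fed library thus lay well above the highest sucrose-fed library, and within each group the values were close. The group means were 48.3 ± 5.83 RPKM and 76.9 ± 4.38 RPKM (SD, n = 3), a ratio of geometric means of 1.60. On the log2 scale the difference was 0.67 ± 0.10 (SE), with a 95% interval of 0.43 to 0.90, and the gene ranked 17 by p among all tested genes.

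*Cyp9b1* lies next to *Cyp9b2* on the same strand, the pair covering 4.30 kb, and it is the less abundant of them. It measured 6.51, 5.03 and 4.19 RPKM with sucrose and 7.74, 8.51 and 6.95 RPKM with PQ. The groups did not overlap, although PQ replicate 3 was only slightly above sucrose replicate 1. Limma gave a log2 fold change of 0.53 ± 0.16 (SE). The values thus lay on the same side for both neighbours, at levels several-fold apart. How the authors' counting treated reads that match both of these related genes is not stated in the sources used here, so their values may not be independent.

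A second tandem pair, *Cyp309a1* and *Cyp309a2* on chromosome 2L, showed the same arrangement. *Cyp309a1*, from 2562905 to 2564848, measured 23.6, 26.7 and 16.6 RPKM with sucrose and 39.4, 38.7 and 35.4 RPKM with PQ. Sucrose replicate 3 was the lowest of all, and the PQ-fed values were tightly grouped. The ratio of geometric means was 1.73 and the log2 fold change 0.77 ± 0.17 (SE), with a 95% interval of 0.37 to 1.17. *Cyp309a2*, which directly adjoins it and runs to 2573047, measured 9.06, 9.22 and 7.46 RPKM with sucrose and 14.6, 12.1 and 10.8 RPKM with PQ. The groups were again separate, and the ratio of geometric means was 1.45, or 0.51 ± 0.14 (SE) on the log2 scale.

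*Cyp6d2*, a P450 gene that fly mutants have linked to resistance against the topoisomerase poison camptothecin, had the largest log2 fold change of the clan. It lies alone on chromosome 2R, from 18540078 to 18542032, and was a low transcript in both groups. Its values were 3.67, 2.42 and 2.32 RPKM with sucrose and 6.68, 6.10 and 4.36 RPKM with PQ. Each PQ-fed value exceeded each sucrose-fed value, and the spread within each group was wide for so low a level. The group means were 2.80 ± 0.754 RPKM and 5.71 ± 1.21 RPKM (SD, n = 3), a ratio of geometric means of 2.05. Its log2 fold change of 0.92 ± 0.20 (SE) had a 95% interval of 0.43 to 1.40. The other members of its subfamily, *Cyp6d4* and *Cyp6d5*, had log2 fold changes of 0.24 each, with groups that overlap.

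The Cyp28 family, a member of which is induced by cactus alkaloids in *Drosophila mettleri*, was divided between abundant and scarce members. *Cyp28a5*, on chromosome 2L from 13977303 to 13979571, measured 78.0, 63.7 and 65.7 RPKM with sucrose and 79.7, 102 and 101 RPKM with PQ. PQ replicate 1 lay only just above sucrose replicate 1, while the other PQ-fed libraries were clearly higher. Its ratio of geometric means was 1.36, or 0.44 ± 0.12 (SE) on the log2 scale. *Cyp28d1*, which has been tied to nicotine resistance, measured 133, 112 and 108 RPKM with sucrose and 149.6, 136 and 147 RPKM with PQ, again without overlap, and its log2 fold change was 0.30 ± 0.09 (SE).

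*Cyp28d2*, which lies beside *Cyp28d1* on the same strand, was far less abundant. It measured 3.48, 3.93 and 3.51 RPKM with sucrose and 4.48, 2.70 and 3.40 RPKM with PQ. The PQ-fed values fell on both sides of the sucrose-fed ones, and the log2 fold change was -0.06 (95% interval -0.45 to 0.33 from limma). *Cyp28c1* on the X chromosome was likewise scarce, at 3.72 and 3.55 RPKM on average, with a log2 fold change of -0.07. Neighbouring genes of this family thus had values on different sides of 0, unlike the Cyp9b and Cyp309 pairs. The sign of *Cyp28d2* is not settled, since its log2 fold change became 0.09 without PQ replicate 2. The difference between the neighbours was not tested.

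Among the most abundant members, values above and below those of the controls occurred together. *Cyp6d5*, on chromosome 3R from 9854952 to 9857206, measured 249, 229 and 205 RPKM with sucrose and 226, 283 and 299 RPKM with PQ. PQ replicate 1 fell among the sucrose-fed values and the other PQ-fed libraries above them (log2 fold change 0.24 ± 0.13, SE). *Cyp6g1*, known for the insecticide resistance that its overexpression gives, measured 224, 199.9 and 163 RPKM with sucrose and 186, 223 and 214 RPKM with PQ. The groups overlapped throughout, and the log2 fold change was 0.09, with a 95% interval from limma of -0.22 to 0.41. *Cyp9f2* measured 156, 140.0 and 130.0 RPKM with sucrose and 129, 147 and 148 RPKM with PQ. Its log2 fold change was -0.01 (95% interval -0.23 to 0.21 from limma), with 0.015 after scaling libraries by a trimmed mean, and the interval leaves room for a small difference in either direction.

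*Cyp6w1*, also known as AntP450, measured 147, 98.8 and 86.1 RPKM with sucrose and 154, 130.0 and 131 RPKM with PQ. Sucrose replicate 1 stood apart from the other controls, inside the range of the PQ-fed libraries. The log2 fold change was 0.35 ± 0.20 (SE), and leaving out sucrose replicate 1 or sucrose replicate 3 made it 0.58 or 0.19. *Cyp9h1* also turned on a single library. It measured 10.99, 12.29 and 11.1 RPKM with sucrose and 18.7, 12.35 and 12.35 RPKM with PQ, and its log2 fold change of 0.30 became 0.10 without PQ replicate 1. Although its groups are formally separate, replicates 2 and 3 of the PQ-fed group lay only just above the highest sucrose-fed library.

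The largest tandem array of the clan lies on chromosome 2R, from 10759178 to 10788556, and holds 9 members in 29.4 kb: *Cyp6a22*, *Cyp6a17*, *Cyp6a23*, *Cyp6a19*, *Cyp6a9*, *Cyp6a20*, *Cyp6a21*, *Cyp6a8* and *Cyp317a1*. Of these 8 were tested, and all 8 had small positive log2 fold changes, from 0.01 to 0.28, with a median of 0.16. Without sucrose replicate 3, however, *Cyp6a17*, *Cyp6a23* and *Cyp317a1* had negative values, of -0.0035, -0.04 and -0.08. *Cyp6a20*, a gene that affects aggressive behaviour in males, was the only one with an unadjusted p under 0.05. It measured 38.0, 33.9 and 34.3 RPKM with sucrose and 38.0, 43.8 and 40.2 RPKM with PQ, so that the lowest PQ-fed library was level with the highest sucrose-fed one. The difference was 0.20 ± 0.08 (SE) on the log2 scale. With the replicate number as a block its unadjusted p from limma went from 0.0432 to 0.0785.

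Levels within the array differed far more between genes than between feeding groups. *Cyp6a17*, which acts in temperature preference, was the most abundant, at 90.3, 81.8 and 78.1 RPKM with sucrose and 75.8, 90.2 and 92.0 RPKM with PQ. Its values overlapped completely, with a log2 fold change of 0.04 (95% interval -0.19 to 0.27 from limma), and with 1 library left out it ran from -0.0089 to 0.13. Its neighbour *Cyp6a23* was at 15.2 and 15.3 RPKM on average and had a log2 fold change of 0.01. *Cyp6a9* measured 32.8, 29.0 and 31.2 RPKM with sucrose and 27.4, 38.4 and 36.1 RPKM with PQ, the PQ-fed libraries lying on both sides of the controls. *Cyp6a19*, which shares 399 bases of its interval with *Cyp6a9* on the other strand, was at the floor in every library.

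*Cyp6a8*, which is induced by foreign compounds in flies and hydroxylates lauric acid, measured 29.7, 17.4 and 16.1 RPKM with sucrose and 27.9, 23.6 and 22.8 RPKM with PQ. Libraries with the number 1 were the highest of both groups, and sucrose replicate 1 exceeded all PQ-fed libraries. Its log2 fold change was 0.28 ± 0.23 (SE), and it ran from 0.11 without sucrose replicate 3 to 0.55 without sucrose replicate 1. *Cyp6a21*, *Cyp6a22* and *Cyp317a1* likewise had their highest value in sucrose replicate 1, at 18.8, 16.2 and 5.14 RPKM, and log2 fold changes of 0.24, 0.24 and 0.13. Outside the array, *Cyp6a13* measured 9.94 and 11.6 RPKM on average. *Cyp6a2*, the gene overproduced in the DDT-resistant strain 91-R, was at 1, 2.34 and 1.27 RPKM with sucrose and 1.53, 1.53 and 1.48 RPKM with PQ. Its whole interval of 1740 bases lies within *Epac* on the same strand, which was at 48.4 to 58.6 RPKM, so a value this low cannot be assigned to *Cyp6a2* with certainty.

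**Figure D3:**
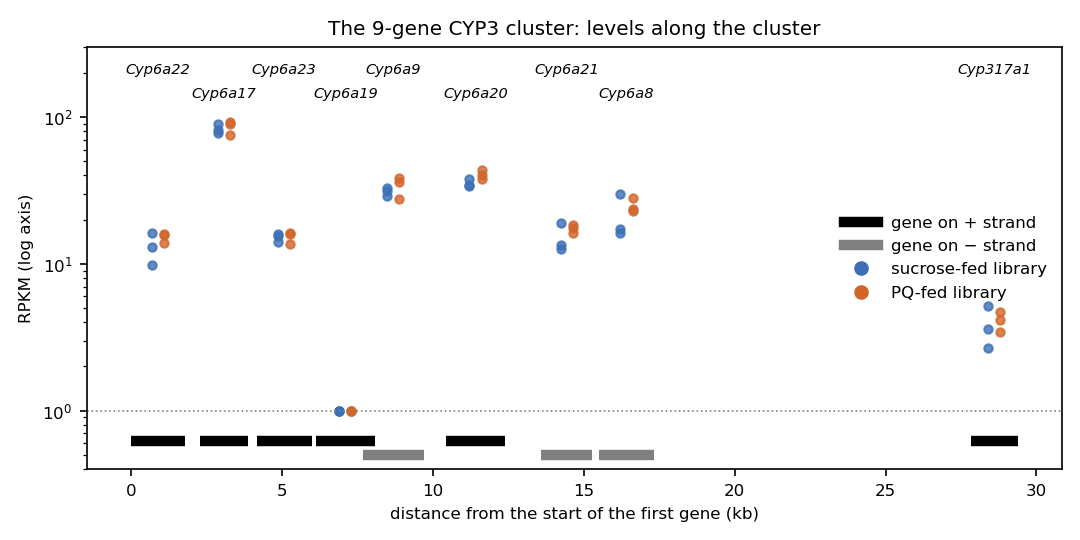
Levels along the 9-gene array: RPKM on a log axis against the distance in kb from the start of the first gene, with blue points for the 3 sucrose-fed and orange points for the 3 PQ-fed libraries, black and grey bars for genes on the plus and minus strands, and a dotted line at the floor. Cyp6a17 stands at 75.8 to 92.0 RPKM and Cyp6a19 at the floor of 1 RPKM, and blue and orange points of each gene overlap or touch.

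The 2 members that were lower in PQ-fed heads at an unadjusted p under 0.05 from limma, also the 2 with separate groups in that direction, were both low transcripts. *Cyp6t3*, required for ecdysone synthesis in the larval prothoracic gland, measured 1.99, 1.75 and 1.52 RPKM with sucrose and 1.24, 1.21 and 1.27 RPKM with PQ. All values were above the floor, and the groups did not overlap. The ratio of geometric means was 0.711, or -0.37 ± 0.09 (SE) on the log2 scale. *Cyp308a1* on the X chromosome measured 1.18, 1.46 and 1.53 RPKM with sucrose, and it was at the floor in PQ replicates 1 and 2 and at 1.06 RPKM in PQ replicate 3. Its log2 fold change of -0.31 ± 0.09 (SE) is limited by the floor, and its interval lies wholly within *CCKLR-17D1* on the other strand, at 3.74 to 4.15 RPKM. *Cyp6g2*, between *Cyp6g1* and *Cyp6t3*, was at the floor throughout the controls and at 1.10, 1.66 and 1.09 RPKM with PQ. Its separation therefore rests on values within 1 RPKM of the floor. The log2 fold change of 0.23 is understated by the floor and rests largely on PQ replicate 2, without which it was 0.09. It shares 94 bases with *Cyp6g1*, which is far more abundant.

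The other tested members had log2 fold changes close to 0. *Cyp6u1*, *Cyp6v1*, *Cyp6t1* and *Cyp9c1* were at 15.6, 10.9, 7.47 and 7.08 RPKM in sucrose-fed heads and had log2 fold changes of -0.02, 0.02, -0.09 and -0.07. By subfamily, all 9 tested Cyp6a genes had positive values, from 0.01 to 0.28, though 3 of them (*Cyp6a2*, *Cyp6a17* and *Cyp6a23*) turned negative when single libraries were left out. The 2 tested Cyp6t genes had negative ones. Both Cyp9b and both Cyp309a genes lay above 0.50. *Cyp6d5* and *Cyp9c1* are further members whose intervals lie wholly within a gene of the other strand, *rdx* at 26.5 to 30.9 RPKM and *CG13594* at 22.2 to 24.7 RPKM. Whether the counting used strand is not given in the sources used here.

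The members' values also varied with the library within each feeding group. Sucrose replicate 1 was the highest of its group for 21 of the 32 tested members, and sucrose replicate 3 the lowest for 20. The summed RPKM of the clan was 1422, 1232 and 1112 with sucrose and 1388, 1498 and 1507 with PQ, so that PQ replicate 1 lay below sucrose replicate 1. Without sucrose replicate 1, 14 members had a higher value at an unadjusted p under 0.05 from limma, and 16 were separate in the higher direction, beside 4.53% and 10.03% of all tested genes. With both libraries numbered 1 left out, a choice made after seeing the data, the counts were 17 and 23, beside 5.03% and 15.9% of all tested genes, and the median log2 fold change of the members was 0.30. Without sucrose replicate 3, 19 of the 32 members had positive values and the median was 0.12. The number passing at an adjusted p under 0.05 was 0 in each of these fits, among the members and over all tested genes alike.

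**Figure D4:**
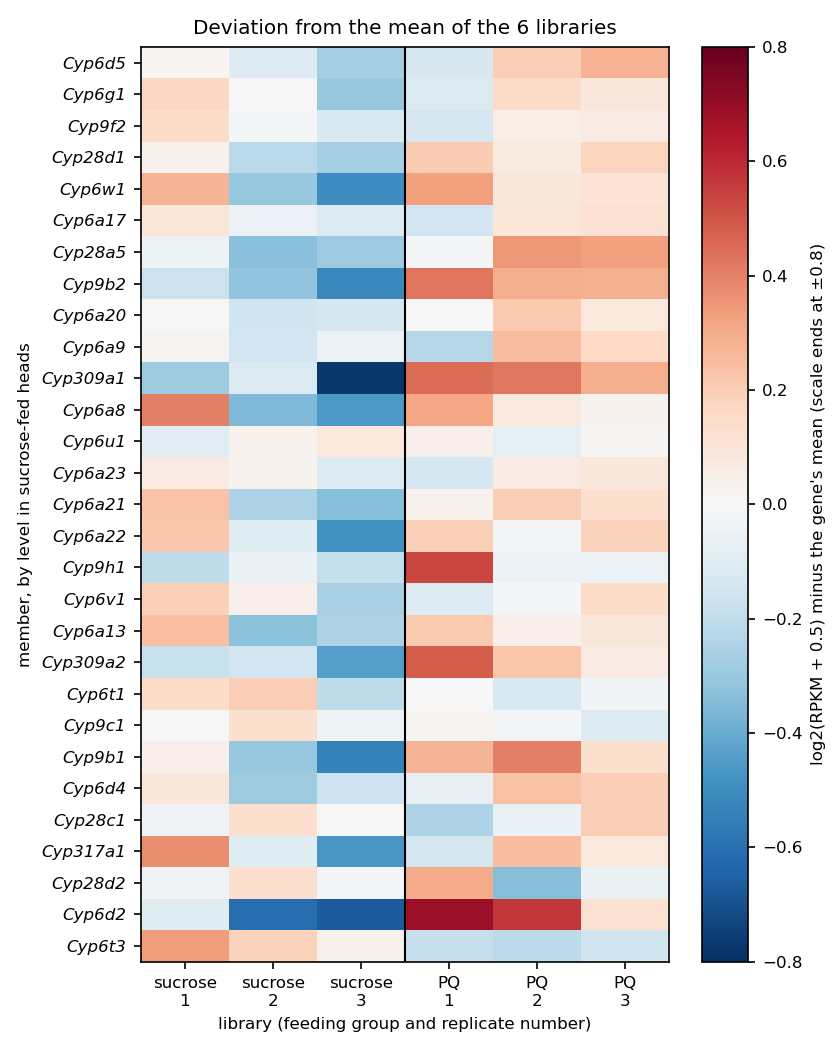
Deviation of each member above the floor in all 6 libraries (29 genes, rows) from its own mean over the libraries (columns), in log2(RPKM + 0.5), red for above and blue for below. The column of sucrose replicate 3 is mostly blue, with a median deviation of -0.23 over the tested members, that of sucrose replicate 1 is closer to the PQ-fed columns with 0.03, and Cyp9b2, Cyp309a1 and Cyp6d2 change colour between the groups in every library.

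Marker transcripts of the head were checked beside these values. All 6 photoreceptor, 5 neuron and 6 glia markers were above the floor. *Uro*, *salt* and *Oatp58Db*, 3 of 4 Malpighian tubule markers, and 4 of 6 gut markers were at the floor in every library. The remaining Malpighian tubule marker, *Irk2*, was at 35.3 to 48.8 RPKM over the libraries. Of the 2 tested gut markers, *LvpH* was at 4.99 to 6.96 RPKM. *Amy-p* was at 53.3 RPKM in sucrose replicate 2 and at 8.81 to 17.8 RPKM in the other libraries. The fat body, a main site of P450 expression in insects, summed to 1088 to 1882 RPKM over its 10 markers in sucrose-fed and 1276 to 1653 RPKM in PQ-fed libraries, with 7 positive log2 fold changes around a median of 0.08 and 0 past limma's test at an adjusted p. At an unadjusted p under 0.05, 0 of the 10 were higher and 1, *fit*, was lower. It measured 6.16, 12.7 and 9.23 RPKM with sucrose and 4.84, 2.97 and 4.69 RPKM with PQ, a log2 fold change of -1.05. *Rfabg*, a fat body lipoprotein precursor, was at 340.2 RPKM in sucrose replicate 1 and 348 RPKM in PQ replicate 1, against 182 to 224 RPKM in the other libraries. The libraries numbered 1 were also the highest of both groups for *apoLTP*, *to*, *AkhR*, *Lsd-1*, *Ilp6* and *Tsf1*. They were not for *Lsp2*, *fit* and *bmm*. *Lsp2* and *bmm* were lowest of the PQ-fed libraries in PQ replicate 1, and *fit* lowest of the controls in sucrose replicate 1. The 4 oenocyte markers above the floor in at least 1 library had a median of 0.07. Of these, *CG6660* was at the floor in 5 libraries, *CG18609* in 4 and *Cyp4g1* in 1. *CG9747*, at 43.4 to 77.3 RPKM, had a log2 fold change of -0.20. Hemocyte markers had a median of 0.26, with 4 of 6 positive values and 1 gene, *He*, higher at an unadjusted p under 0.05 from limma. *He* measured 1.17, 1 and 1 RPKM with sucrose and 1.21, 1.55 and 2.14 RPKM with PQ, near the floor in both groups. Neuron markers had a median of 0.24, with 4 of 5 positive values, 0 of them past an unadjusted p under 0.05. The hemocyte and neuron medians were as large as that of the clan. Those of other lists were not: glia markers had a median of 0.002, with 4 of 6 positive values. Photoreceptor markers had a median of -0.09, with 0 of 6 positive values, and muscle markers one of -0.09, with 0 of 5. The summed hemocyte level was 120.1 to 129.9 RPKM with sucrose and 111 to 130.2 RPKM with PQ. It was mostly *crq* (68.2 to 79.7 RPKM) and *Pxn* (36.2 to 41.6 RPKM), whose log2 fold changes were -0.04 and -0.02. The 4 markers with positive values, *Hml*, *NimC1*, *He* and *eater*, were at 8.86 RPKM or less, so the sum says little about them. In whole heads, fewer cells of a type and less RNA per cell cannot be told apart, and the part of the fat body, hemocytes and neurons in the clan's values was not tested.

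The genes that serve or regulate P450 enzymes had values near those of the controls. *Cpr*, the common electron donor, measured 99.5, 90.0 and 81.1 RPKM with sucrose and 95.2, 94.7 and 98.3 RPKM with PQ, a log2 fold change of 0.09 ± 0.08 (SE). Its 3 PQ-fed values lay inside the range of the controls. Of 6 electron donor genes, 4 had positive values, from -0.09 to 0.20 over all, and 0 passed by adjusted or unadjusted p. Of 9 genes of heme synthesis and breakdown 0 passed, and 1 was higher at an unadjusted p under 0.05. This was the gene of porphobilinogen deaminase, an enzyme of heme synthesis. It measured 54.7, 57.5 and 54.4 RPKM with sucrose and 62.2, 65.6 and 63.1 RPKM with PQ, without overlap, and its log2 fold change was 0.20 ± 0.06 (SE), with an adjusted p of 0.951 from limma.

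The regulators of xenobiotic response were likewise near 0. *cnc*, the fly Nrf2 homolog that activates detoxification genes, measured 51.7, 46.6 and 45.3 RPKM with sucrose and 51.8, 51.5 and 52.0 RPKM with PQ. Its repressor *Keap1* measured 10.9, 10.3 and 10.1 RPKM with sucrose and 10.8, 11.5 and 11.5 RPKM with PQ. The log2 fold change was 0.11 for each. For *cnc*, sucrose replicate 1 was level with the PQ-fed libraries, and for *Keap1* it was level with PQ replicate 1 and below the others. Over the 8 regulator genes, which include *maf-S*, *Hr96*, *ss* and *tgo*, log2 fold changes ran from -0.08 to 0.11, and 0 passed by adjusted or unadjusted p. A transcript level does not report the activity of these proteins.

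Set beside the other P450 clans, the CYP3 clan had a median log2 fold change of 0.21 over 32 genes, the CYP4 clan 0.04 over 27, the mitochondrial clan 0.13 over 8 and the CYP2 clan -0.01 over 4. Of the CYP4 clan, 7 genes were higher at an unadjusted p under 0.05 and 0 lower, and of the mitochondrial clan 1 was higher. The groups were separate in the higher direction for 6 CYP4 and 1 mitochondrial gene. In each clan 0 genes passed at an adjusted p. The share of members higher at an unadjusted p was thus 25.0% in the CYP3 and 25.9% in the CYP4 clan. The clans were taken by gene symbols that start with Cyp, so P450 genes listed under other names are not counted. The differences between clans were not tested.

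**Figure D5:**
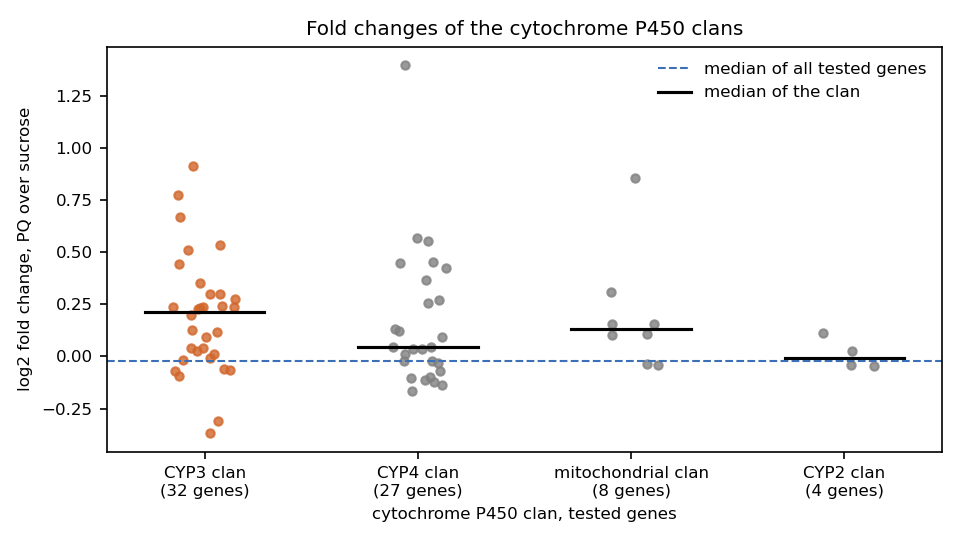
Log2 fold change of the tested P450 genes whose symbols start with Cyp, one point per gene, by clan. The clan's median is a black line and the median of all tested genes (-0.02) a dashed line. The CYP3 clan runs from -0.37 to 0.92 around a median of 0.21, and the highest CYP4 value, 1.40, lies above all CYP3 members.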

How the data were processed

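RNAseq values of 6 head libraries were used, 3 per feeding group, grouped by their titles. Per the submitters' processing notes, reads were placed on dm3 by TopHat2 2.0. The authors deposited RPKM per gene, normalized, by their methods, with trimmed means of M-values. The counting tool and annotation are not given in the sources used here. The deposited RPKM hold no counts, so the depth behind a value is unknown and precision is that between replicates, which the series describes as biologically independent. A second deposited table holds the authors' own fold changes and p-values and was not used. Further libraries named in the methods are not analysed here.

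Values were tested with limma 3.58.1 (R 4.3.3) on log2(RPKM + 0.5) with a mean-variance trend. The 4751 genes at the floor of 1 RPKM in all libraries were left out. The procedure was tested on simulated data with the same spread for every gene, and recovery was counted for the more abundant genes only. It does not show how well differences in scarce members are recovered. Of the 40 members, 38 matched the release 6 gene IDs and 2 matched by symbol. Genes within 20 kb of each other were taken as 1 array. Values in each library were given for members with an unadjusted p under 0.05, with separate groups, among the 10 most abundant, or next to these. Of the partner list, genes were named under the first 2 criteria, with *Cpr*, *cnc* and *Keap1* named always. Other genes were named after their values were seen. CG13279 and *Cyt-b5-r* of the partner list are the same gene and were counted once. The members and lists were chosen with earlier results of these data known. The alternatives changed the pseudocount to 0.1 or 1, dropped the filter, required a mean of 5 RPKM or more, scaled libraries by a mean trimmed by 30% at each end, added a replicate block, or omitted 1 library at a time. Omitting both libraries numbered 1, and requiring values above the floor in at least 3 libraries, were chosen after seeing the data. Plots were drawn with matplotlib 3.10.9 (Python 3.11.15).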

Additional observations from a re-analysis of the deposited data

How the results depend on the processing

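In every alternative, 0 members passed at an adjusted p under 0.05 from limma, and the adjusted p of *Cyp9b2* ran from 0.0988 without sucrose replicate 1 to 0.859 with no filter. Over all tested genes, 8 passed in the report, 1 with no filter and 5 without PQ replicate 1. In the fits without any other single library, and without both libraries numbered 1, 0 genes passed at all. There the 0 members tell nothing particular about the clan. The count higher at an unadjusted p, 8 in the report, ran from 6 to 14 with 1 library left out (14 without sucrose replicate 1). It was 17 without both libraries numbered 1. The share of all tested genes was 2.21% in the report, 1.34% to 4.53% with 1 library left out and 5.03% without both. The count of members separate in the higher direction, 9 in the report, ran from 9 to 16 with 1 library left out (16 without sucrose replicate 1). It was 7 when a mean of 5 RPKM was required and 10 with trimmed mean scaling. Without both libraries numbered 1 it was 23, and 4 members were separate in the lower direction. Of all tested genes, 3.11% were separate in the higher direction in the report and 5.13% to 10.03% with 1 library left out. The share was 2.91% with a mean of 5 RPKM and 4.17% with trimmed mean scaling. Without both libraries numbered 1 it was 15.9%, and 26.1% of all tested genes were separate in the lower direction. With a mean RPKM of at least 5, 23 members were tested, and 0 were lower at an unadjusted p or by separation, since *Cyp6t3* and *Cyp308a1* are removed. Over all tested genes these shares were 1.42% and 4.58%. With a replicate block, 8 members were higher and 2 lower at an unadjusted p, beside 2.79% and 1.63% of all tested genes, and 0 passed. With the block *Cyp6a20* no longer had an unadjusted p under 0.05 (0.0785 from limma), and *Cyp6w1* did (0.0248, against 0.115 without it). Same-numbered libraries deviated together for number 1 (r = 0.41, taken over genes) and not for 2 and 3 (0.06 and 0.05), so numbers were not treated as pairs. The sign turned for 10 of the 32 members, all with log2 fold changes of at most 0.13 in size. With 1 library left out, *Cyp6g1* ran from -0.034 to 0.20, *Cyp6a17* from -0.0089 to 0.13, *Cyp9f2* from -0.071 to 0.061, *Cyp6a23* from -0.042 to 0.084 and *Cyp317a1* from -0.076 to 0.34. *Cyp6a2* ran from -0.15 to 0.31, *Cyp6v1* from -0.10 to 0.12, *Cyp6u1* from -0.064 to 0.023, *Cyp28c1* from -0.19 to 0.035 and *Cyp28d2* from -0.23 to 0.092. With trimmed mean scaling *Cyp9f2* was at 0.015 and *Cyp6u1* at 0.0092. Without both libraries numbered 1, *Cyp9f2* was at 0.13, *Cyp6a2* at -0.16 and *Cyp28c1* at 0.0028. The cause was not tested. Over all 32 tested members, 22 alternative values turned in sign and the other 417 kept their sign and their side of the adjusted threshold. The floor limits every statement on members near 1 RPKM, and 8 members could not be measured.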

Other observations

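Some antennal transcripts differed between libraries of the same feeding group. *Os-E*, an odorant binding protein gene, was at 1.56, 1.26 and 23.1 RPKM in sucrose-fed and 1, 1.64 and 6.12 RPKM in PQ-fed libraries. *Os-C* and *a10*, expressed in the antenna, were highest in the same libraries, at 20.3 and 19.1 RPKM in sucrose replicate 3 and 6.07 and 6.23 RPKM in PQ replicate 3. Other antennal markers did not share this. *lush*, *Orco* and *Obp28a* were highest of the controls in sucrose replicate 3, but of the PQ-fed libraries in PQ replicate 2. *Ir25a* was highest of the controls in sucrose replicate 1. *Obp19d* was lowest of them in sucrose replicate 3, at 608, 529 and 512 RPKM, and *Obp56d* stood at 584 to 612 RPKM. Of the 11 antennal markers, 9 were above the floor in at least 1 library, with 1 positive log2 fold change and a median of -0.35.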
